A study of Mus musculus with 12 samples.

Results

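The genes described here are 10 that encode or control the contractile apparatus of smooth muscle: Myl9, Acta2, Tagln, Myh11, Cnn1, Smtn, Mylk, Actg2, Myocd and Lmod1. All 10 were found by symbol among the 54178 gene entries of a count table from mouse whole hearts, and all 10 were among the 15226 genes with enough counts to be tested. The list was put together around Myl9, which had stood out between knockout and control hearts under the sedentary label, and the other 9 were set beside it. The levels that picked Myl9 out are therefore given as a description, with no test.

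RNA came from whole hearts, as 12 libraries in 4 groups of 3. Flox mice carried loxP-flanked CITED4 alleles on both copies, while KO mice also carried aMHC-cre, which is made in cardiomyocytes, so that vascular cells should keep the gene. Both genotypes either stayed sedentary or ran voluntarily on wheels for 8 weeks, and hearts with cre and intact alleles were not analysed here. The sources used here do not give ages, sexes or the animal behind each library. The bracketed codes in the sample titles carry E beside the word sedentary and S beside the word exercise. Groups follow the words, so treatment is called a label throughout, and if the codes were right each treatment direction would turn and the genotype comparisons would exchange names.

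Smooth muscle cells shorten when calcium and calmodulin switch on the kinase encoded by Mylk, which phosphorylates the regulatory light chain encoded by Myl9 on the myosin heavy chain encoded by Myh11. The thin filament is built from the actins of Acta2 and Actg2 and carries calponin (Cnn1), transgelin (Tagln), smoothelin (Smtn) and leiomodin (Lmod1). Myocardin, the product of Myocd, joins serum response factor on DNA motifs called CArG boxes and raises transcription of these genes. In the heart most smooth muscle lies in the walls of coronary vessels and of the great vessels and veins at the base. Myocardin is made in cardiomyocytes too.

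Libraries held 17465432 to 20467300 counts. Cited4 had 192 to 431 counts in the 6 Flox libraries and 0 to 5 in the 6 KO libraries. Smooth muscle RNA was present in every library, since Acta2 had at least 1312 counts, Myh11 at least 733 and Tagln at least 498. The lowest count of any of the 10 genes was 5, for Actg2 in Flox labelled sedentary 2, or 0.262 CPM (CPM is the count scaled to a common library size; exact Poisson 95% interval 0.0852 to 0.612). For Myl9 the lowest count was 353 in the same library, or 18.5 CPM (16.6 to 20.6). These intervals cover counting error only.

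Markers of other cell types differed between libraries. The 12 atrial cardiomyocyte markers (such as Nppa, Myl7, Myl4 and Sln) summed to 652 to 5875 CPM in 9 libraries outside the KO sedentary group. In KO labelled sedentary they summed to 2406, 13410 and 24770 CPM in libraries 1, 2 and 3. The fat cell genes Adipoq and Cidec stood at 6.12 to 16.4 CPM in those 3 libraries and at or below 1.55 CPM in the other 9, although the 11 adipocyte markers summed to 749.5 to 938.2 CPM in KO and 754.5 to 978.1 CPM in Flox labelled sedentary. The 9 ventricular and general cardiomyocyte markers summed to 59220, 49020 and 51170 CPM in KO labelled sedentary 1, 2 and 3, against 66790 to 69710 CPM in Flox labelled sedentary. Schwann and nerve markers summed to 22.3 to 36.0 CPM against 15.7 to 19.6 CPM in these groups, and valve and chondrogenic markers to 41.8 to 150.8 CPM against 6.96 to 50.3 CPM. Over 12 libraries the mean log2 CPM of each list (its genes with at least 1 CPM on average) had a Pearson correlation with Myl9 of -0.90 for ventricular, 0.89 for adipocyte, 0.83 for Schwann, and 0.70 for each of the atrial, fibroblast and valve markers, as a description. With the mean of the other 9 genes the correlation was -0.43 for ventricular, 0.71 for adipocyte and 0.25 for Schwann markers. It was 0.15 for atrial, 0.41 for fibroblast and 0.39 for valve markers. For each of these lists the correlation was stronger with Myl9 than with the other genes, and ventricular markers ran opposite to both. Weaker correlations with Myl9 were those of pericyte (-0.48), macrophage (0.49), mesothelial (0.515) and endothelial (0.35) markers. All of these values include the KO sedentary libraries on which Myl9 was picked out. The part of these markers in the results that follow was not tested. In whole-heart RNA, more cells of a type and more RNA per cell cannot be told apart.

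Per kilobase of exon, Acta2 was the most abundant of the 10 genes and Actg2 the least. The mean level over 12 libraries was 68.7 CPM per kilobase for Acta2 (31.4 to 191), 47.6 for Myl9 (15.9 to 136), 43.8 for Smtn (37.2 to 53.3) and 26.2 for Tagln (13.1 to 63.4). These first 4 overlapped in range. Below them came Myh11 with 7.97 (4.71 to 20.6), Myocd with 4.68 (3.41 to 5.92), Mylk with 2.76 (2.07 to 4.02) and Cnn1 with 2.08 (0.575 to 7.47). Lmod1 followed with 1.19 (0.611 to 2.98) and Actg2, the actin of visceral smooth muscle, with 0.741 (0.169 to 1.70). Neighbours in this lower order overlapped in range as well.

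The gene for Myl9 occupies bases 156775420 to 156781658 of chromosome 2, forward strand (GENCODE M21, GRCm38), with 1162 exonic bases in 4 blocks. No other annotated gene shares exon bases with it. Its promoter is shown because, of the 6 genes of the list with a promoter in the RefSeq table (GRCm38.p6), it was the only one with a full CArG box: the letters CC, then 6 that are A or T, then GG. That motif reads the same on both strands, and 1.63% of the 32851 promoter windows of 300 bases held it. The forward strand of chr2:156775214-156775407, which ends before the first annotated transcript start, is written with 2 motifs in capitals.

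Myl9 upstream: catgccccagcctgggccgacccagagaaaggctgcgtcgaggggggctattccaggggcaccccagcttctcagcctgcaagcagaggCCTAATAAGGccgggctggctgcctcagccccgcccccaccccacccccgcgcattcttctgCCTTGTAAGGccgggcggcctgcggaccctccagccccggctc

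The first run of capitals is the CArG box, 161 to 152 bases before the start used by the table. The second has 1 G in its core and lies 99 to 90 bases before that start. Acta2 held 2 motifs with 1 C or G in the core, CCCTATATGG and CCTTGTTTGG, and no full box. Allowing 1 such letter, 9.98% of all windows held a motif. The windows of Lmod1, Cnn1, Smtn and Mylk held neither form, which says only that these letters are absent there. Promoters of Tagln, Myh11, Actg2 and Myocd were not analysed here.

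Under the sedentary label, Myl9 was high in all 3 KO hearts. It measured 38.3, 18.5 and 28.9 CPM in Flox labelled sedentary 1, 2 and 3 and 81.7, 94.5 and 158 CPM in KO labelled sedentary 1, 2 and 3. The groups did not overlap, and the lowest KO value was above every value of the other 9 libraries, whose highest was 51.5 CPM. Means were 28.6 ± 9.89 CPM in Flox and 111 ± 40.9 CPM in KO (SD, n = 3 each), a difference of 1.97 ± 0.31 on the log2 scale (SE). Over all genes 16 were called higher here (edgeR quasi-likelihood test, Benjamini-Hochberg adjusted p below 0.05), or 0.105% of those tested. Myl9 was picked from them, so its place there is no evidence. That place also depended on the setting. DESeq2 called Myl9 too, but edgeR did not with no filter on low counts or from only the 2 groups compared. Leaving out 1 library at a time gave log2 differences of 1.62 to 2.23.

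**Figure D1:**
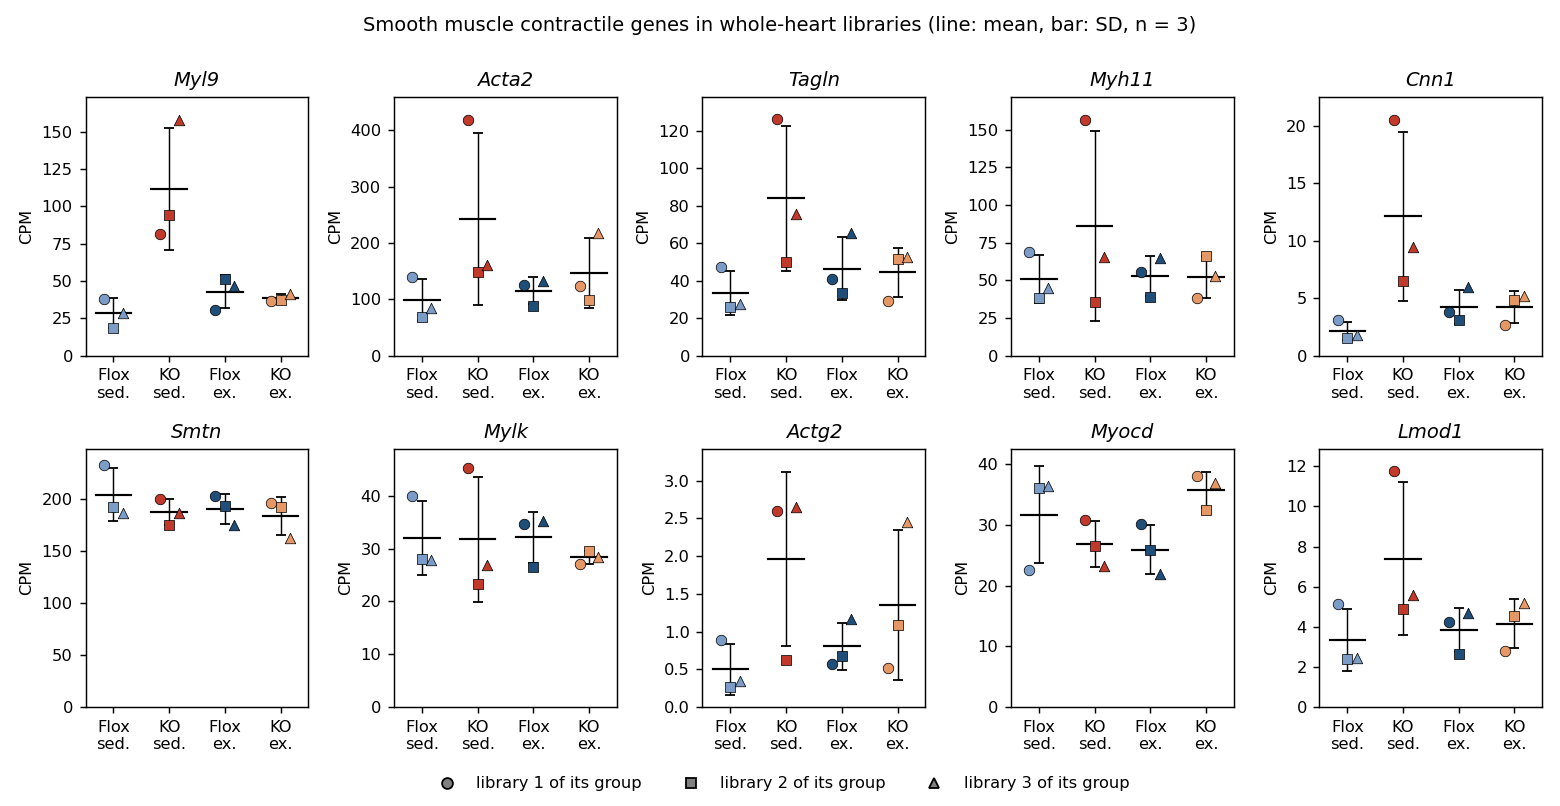
CPM of the 10 smooth muscle contractile genes in each of the 12 libraries, by genotype and treatment label (sed., sedentary; ex., exercise); points are libraries, lines group means and bars SD (n = 3). Myl9 is at 81.7 to 158 CPM in KO labelled sedentary against 18.5 to 51.5 CPM elsewhere, while Acta2, Tagln, Myh11, Cnn1, Mylk and Lmod1 are highest in KO labelled sedentary 1.

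Acta2, Tagln, Cnn1 and Lmod1, of the thin filament, had their highest value of all 12 libraries in KO labelled sedentary 1. Acta2, the actin of vascular smooth muscle, stood at 140, 68.9 and 85.1 CPM in Flox and at 419, 149 and 162 CPM in KO. All KO values were above all Flox values, with library 1 far above the other 2 (log2 difference 1.31 ± 0.46, SE). Tagln, an actin-binding protein of smooth muscle, stood at 47.2, 26.1 and 27.6 CPM in Flox and at 126, 50 and 75.4 CPM in KO (1.32 ± 0.41). Its groups did not overlap either, although KO library 2 was close to Flox library 1. Exons of the antisense entry Gm48529 and of Pcsk7 cover parts of those of Tagln on the other strand, and the strand setting is not given, so reads of Tagln and of these genes cannot be fully separated. Gm48529 reached at most 3.66 CPM and Pcsk7 at most 23.3 CPM, scaled by total counts alone. They share 1241 and 108 exon bases with Tagln.

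Cnn1 differed more than Myl9 in size, with a wider error. Calponin, its product, binds actin and restrains myosin. Cnn1 measured 3.07, 1.57 and 1.77 CPM in Flox labelled sedentary and 20.4, 6.49 and 9.44 CPM in KO labelled sedentary. The groups did not overlap, and the log2 difference was 2.51 ± 0.46 (SE), from 30 to 52 counts per Flox library. Lmod1, which nucleates actin filaments in smooth muscle, stood at 5.13, 2.41 and 2.47 CPM in Flox and at 11.8, 4.88 and 5.57 CPM in KO (1.15 ± 0.40). Here Flox library 1 lay within the KO values. Actg2 stood at 0.885, 0.262 and 0.353 CPM in Flox and at 2.60, 0.626 and 2.65 CPM in KO (1.98 ± 0.68), again with overlap. Its 5 to 58 counts make it the least certain, and its sequence is close to those of the other actins, of which Actc1 alone stood at 5169 to 7982 CPM.

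The motor and its kinase did not follow Myl9. Myh11, the heavy chain on which the light chain sits, measured 69.0, 38.5 and 44.9 CPM in Flox labelled sedentary and 157, 35.8 and 65.6 CPM in KO labelled sedentary. Library 1 of KO was the highest of all 12 and library 2 the lowest of all 12, so the difference of 0.76 ± 0.49 on the log2 scale rested on library 1. Mylk stood at 40.0, 28.1 and 27.8 CPM in Flox and at 45.3, 23.3 and 26.9 CPM in KO (-0.01 ± 0.23). Smtn stood at 187 to 234 CPM in Flox and at 176 to 201 CPM in KO (-0.12 ± 0.12). Myocd stood at 22.5, 36.1 and 36.5 CPM in Flox and at 30.8, 26.5 and 23.3 CPM in KO (-0.24 ± 0.18). For these last 3 the groups overlapped.

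Counting the list in that comparison, 7 of 10 had a log2 difference above 0, and 4 of 10 had groups that did not overlap, all higher in KO. Of all tested genes, 18.4% had groups that did not overlap, 10.4% with KO higher and 7.93% with KO lower. The median log2 difference of the 10 was 1.23, against 0.00 over all tested genes. The list was chosen on this comparison, so nothing is read from these counts. Without KO labelled sedentary 1 the median of the 10 was 0.64, while Myl9 went to 2.13 ± 0.32, Acta2 to 0.65 ± 0.37, Lmod1 to 0.64 ± 0.36 and Myh11 to -0.02 ± 0.36.

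The ratio of Myl9 to the other 9 genes separated the KO sedentary libraries from each other. The ratio was taken within each library as the log2 CPM of Myl9 minus the mean log2 CPM of the other 9, so scaling between libraries drops out. It was 0.77, 0.44 and 0.95 in Flox labelled sedentary 1, 2 and 3 and 0.75, 2.21 and 2.46 in KO labelled sedentary 1, 2 and 3. Library 1 of KO lay inside the Flox values by this measure: there Myl9 and the mean of the other genes were both high. That place depended on the denominator. Against the summed CPM of the other 9, its log2 ratio was -3.63, above the Flox values of -3.875, -4.41 and -3.84. Against Myh11 alone it was -0.94, within the Flox values of -1.05 to -0.64. In libraries 2 and 3 Myl9 was high, and the mean of the other 9 was 4.36 and 4.85 log2 CPM. In Flox labelled sedentary that mean was 4.06 ± 0.38 log2 CPM (SD, n = 3), with the highest value, 4.49, in library 1. Library 2 of KO thus lay within the Flox values, and library 3 of KO lay above them all. KO labelled sedentary 2 and 3 also had the highest atrial marker sums of all 12. The next highest ratio, 1.64 in Flox labelled exercise 2, was in the library with the next highest atrial sum, 5875 CPM. Flox labelled sedentary 3, with a sum of 5577 CPM, had a ratio of 0.95, and KO labelled exercise 3, with 4560 CPM, one of 0.63.

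**Figure D2:**
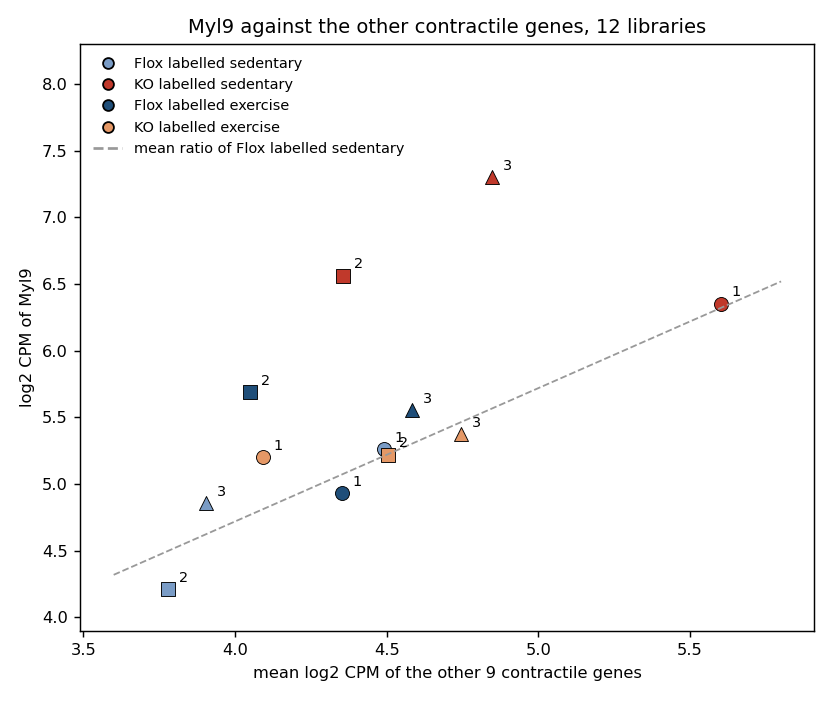
Log2 CPM of Myl9 (vertical axis) against the mean log2 CPM of the other 9 contractile genes (horizontal axis) in 12 libraries, numbered within their group; the dashed line has the mean ratio of Flox labelled sedentary. KO labelled sedentary 1 lies on that line at 5.60 and 6.35, and KO labelled sedentary 2 and 3 lie above it.

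Under the exercise label, none of the 10 genes passed the test between KO and Flox hearts. These 6 libraries did not enter the comparison that picked Myl9 out, so they can be tested. Of the 10 genes, 0 passed in edgeR and 0 in DESeq2, with 1 at an unadjusted p under 0.05 where 7.94% of all genes were. Over all genes 1 passed in edgeR, or 0.00657%. Myl9 stood at 30.4, 51.5 and 46.9 CPM in Flox labelled exercise and at 36.8, 37.3 and 41.5 CPM in KO labelled exercise. All KO values lay within the Flox values, and the log2 difference was -0.16 ± 0.30 (SE; edgeR adjusted p = 0.905). The 3 KO values were close together (38.5 ± 2.56 CPM, SD, n = 3), and those of Flox were not (43.0 ± 11.1 CPM).

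The other thin filament and motor genes overlapped between genotypes under the exercise label. Acta2 stood at 126, 88.0 and 132 CPM in Flox and at 124, 99.6 and 217 CPM in KO (0.35 ± 0.45, edgeR adjusted p = 0.852). KO library 3 was the one high value. Tagln stood at 40.7, 33.3 and 65.3 CPM in Flox and at 29.1, 51.5 and 52.5 CPM in KO (-0.06 ± 0.40, edgeR adjusted p = 0.976). Myh11 ran from 38.6 to 64.8 CPM in Flox and from 38.4 to 66.2 CPM in KO, and Cnn1 from 3.10 to 5.92 and from 2.63 to 5.22 CPM. Smtn, Mylk, Actg2 and Lmod1 overlapped too, with log2 differences of -0.05 ± 0.12, -0.18 ± 0.23, 0.74 ± 0.66 and 0.11 ± 0.41. With standard errors of 0.30 to 0.66 for Myl9 and the genes that had varied most, differences of the size seen under the sedentary label for Lmod1 or Acta2 could have been missed here.

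Myocd, the transcriptional co-activator, was the 1 gene of the list whose genotypes did not overlap under the exercise label, against 14.8% of all tested genes (7.61% with KO higher and 7.23% with KO lower). It stood at 30.1, 25.8 and 21.9 CPM in Flox labelled exercise and at 38.1, 32.4 and 36.9 CPM in KO labelled exercise. The log2 difference of 0.46 ± 0.18 (SE) did not pass (edgeR adjusted p = 0.601). Under the sedentary label its value was -0.24 ± 0.18.

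Under the exercise label the ratio of Myl9 to the other 9 genes overlapped between genotypes. It was 0.58, 1.64 and 0.97 in Flox and 1.11, 0.72 and 0.63 in KO. The mean difference of -0.24 had p = 0.70 in a two-sided exact permutation test, where 3 against 3 libraries cannot give less than 0.10. Without Flox labelled exercise 2 it was 0.05. The median log2 difference of the 10 genes was -0.01 under this label, equal to the -0.01 of all tested genes at that precision.

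**Figure D3:**
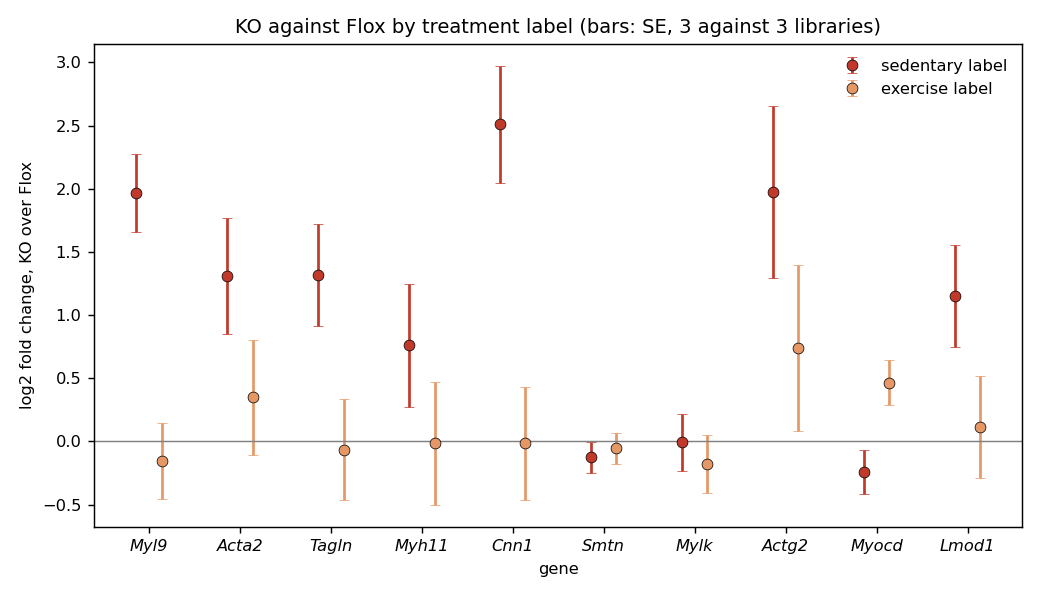
Log2 fold change of KO over Flox for each of the 10 genes under the sedentary and the exercise label; bars are SE of the fit over 12 libraries. Under the exercise label all 10 values lie between -0.18 and 0.74, and under the sedentary label those of Cnn1, Actg2 and Myl9 are 2.51, 1.98 and 1.97.

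Between treatment labels in Flox hearts, no gene of the list passed, and no gene passed over the whole table either (edgeR, 0%; 44 genes by DESeq2, and 1129 with an unadjusted p under 0.05 in edgeR). Of the 10 genes 0 had an unadjusted p under 0.05, where 7.41% of all genes did, and DESeq2 called 0. Cnn1 was the 1 gene whose groups did not overlap, higher under the exercise label at 3.76, 3.10 and 5.92 CPM against 3.07, 1.57 and 1.77 CPM (1.00 ± 0.47, SE; edgeR adjusted p = 0.673). Groups were apart in 14.1% of all tested genes, upwards in 7.5% and downwards in 6.57%. Myl9 went from 28.6 ± 9.89 to 43.0 ± 11.1 CPM (SD, n = 3 each) with overlap. It is not tested here because the Flox sedentary libraries entered the comparison that picked it out. The tests of the other genes share those libraries, so they are not independent of the choice of the list.

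Between treatment labels in KO hearts, most contractile genes had lower values under the exercise label, and none passed in edgeR. Of the 10 genes 9 had a log2 difference below 0, with a median of -0.72 against -0.004 over all tested genes. They share the KO sedentary libraries with the genotype comparison on which the list was chosen, so they carry the same high values. The tests that follow are therefore not independent of the choice of the list. In edgeR 0 of the 10 passed, where 0.0197% of all genes did, and 4 had an unadjusted p under 0.05, where 10.6% of all genes did; Myl9, picked on these KO sedentary libraries, is 1 of the 4. DESeq2 called Cnn1 lower (DESeq2 adjusted p = 0.0488), among 110 genes that it called over the whole table. Cnn1 had means of 12.1 ± 7.35 and 4.22 ± 1.39 CPM under the sedentary and the exercise label (SD, n = 3 each). Its groups did not overlap, as was the case downwards for 7.31% of all tested genes, and the log2 difference was -1.52 ± 0.43 (SE; edgeR adjusted p = 0.318). Tagln stood at -0.92 ± 0.40 (edgeR adjusted p = 0.459) and Lmod1 at -0.83 ± 0.40 (edgeR adjusted p = 0.483). Myocd went the other way, at 0.41 ± 0.18 with groups apart, as upwards in 5.83% of all genes (edgeR adjusted p = 0.441). Without KO labelled sedentary 1 the median of the 10 genes was -0.16. Myl9, given without a test, was at 36.8 to 41.5 CPM under the exercise label against 81.7 to 158 CPM under the sedentary label.

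Across the 12 libraries the list fell into a group that varied together and a few genes that did not join it. Tagln and Cnn1 had a Pearson correlation of log2 CPM of 0.97, Tagln and Lmod1 of 0.96, and Acta2 and Lmod1 of 0.91. Myl9 was at 0.79 with Cnn1, 0.70 with Tagln, 0.58 with Acta2 and 0.34 with Myh11, its partner in the myosin molecule. After the 4 group means were removed, Tagln and Cnn1 still had 0.99 and Tagln and Myh11 0.92, while Myl9 had 0.17 with Tagln, 0.11 with Cnn1, -0.02 with Acta2 and -0.01 with Myh11. Mylk had 0.55 with Tagln and 0.84 with Myh11, and 0.86 and 0.94 after that removal. Smtn (163 to 234 CPM) and Myocd (21.9 to 38.1 CPM) hardly followed the group, with correlations of -0.08 and -0.44 to Tagln. Myl9 and Myocd had -0.54, and -0.75 after the group means were removed. These correlations over 12 libraries are descriptions, since libraries share their group, tissue makeup and scaling.

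By Pearson correlation, genes outside the list led those most like Myl9. Among 13396 genes with at least 1 CPM on average, the 5 outside the list with the highest correlation to Myl9 over 12 libraries were Prkar2b (0.96), which holds protein kinase A inactive, Acp5 (0.95), an acid phosphatase, Map1b (0.95), a microtubule protein, Tpm2 (0.94), a tropomyosin of muscle, and Tgfb3 (0.94), a growth factor of the TGF-beta family. In KO labelled sedentary, Prkar2b stood at 11.3, 8.23 and 21.7 CPM, and it was at or below 2.995 CPM elsewhere. Tpm2 was at 41.7, 53.4 and 79.8 CPM in these libraries and at 13.5 to 34.1 CPM elsewhere. Cnn1 came 195th, Tagln 574th, Acta2 1345th and Myh11 3266th in the same order. The order depended on the measure: 2 of the 5 stayed among the top 5 by Spearman correlation and 0 after group means were removed. Their correlations after that removal were 0.897 for Tgfb3, 0.895 for Prkar2b, 0.877 for Tpm2, 0.854 for Acp5 and 0.696 for Map1b. By Spearman, Cnn1 (0.853), Tagln and Actg2 (0.762 each) came before Tpm2 (0.755).

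The 5 genes most like the mean of the other 9 were different ones, of which 2 stayed among the top 5 by Spearman and 1 after group means were removed. They were Npnt (0.94), a matrix ligand of integrins, Ccn3 (0.93), a secreted matricellular protein, Actn1 (0.91), a non-muscle alpha-actinin, Scube3 (0.90), a secreted protein, and Itga8 (0.87), the integrin chain that binds the Npnt product. Npnt measured 14.3, 2.55 and 6.16 CPM in KO labelled sedentary 1, 2 and 3 and at 1.18 to 2.82 CPM elsewhere. Itga8 stood at 38.6, 8.72 and 17.9 CPM in the same 3 libraries and at 4.27 to 11.9 CPM elsewhere. Both thus had their highest value in library 1, as Acta2, Tagln and Myh11 did, whereas Myl9, Prkar2b and Tpm2 had theirs in library 3.

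**Figure D4:**
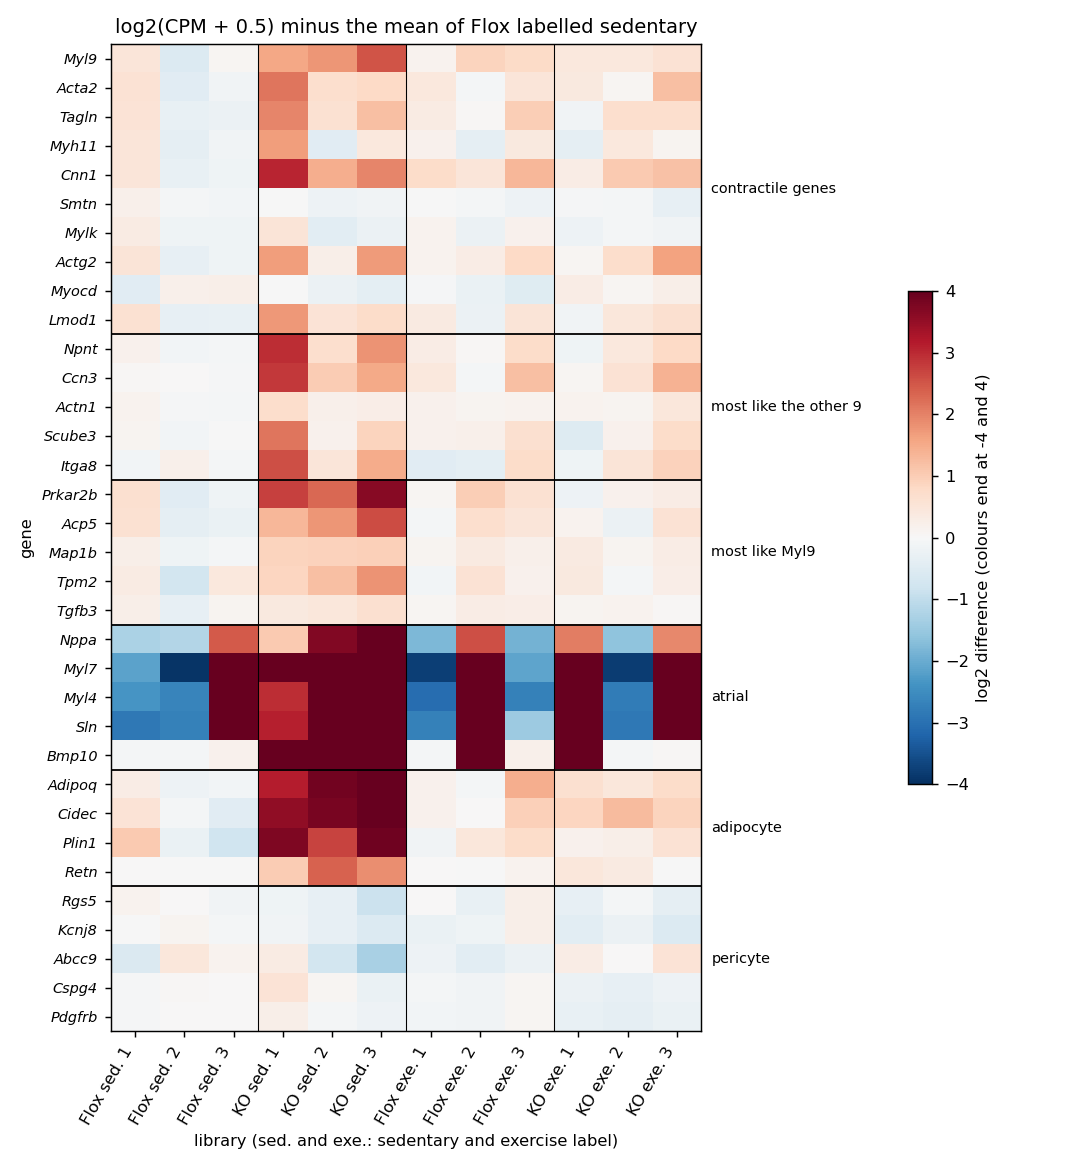
Log2(CPM + 0.5) of each gene minus its mean in Flox labelled sedentary, in 12 libraries (columns), for the 10 contractile genes, the genes most like them, and some markers of atrial cardiomyocytes, adipocytes and pericytes. For adipocytes, Adipoq, Cidec, Plin1 and Retn are drawn. Fabp4, Lipe, Pparg and Plin4, with lower means in KO than in Flox labelled sedentary, are not drawn. Nor are Cfd, Car3 and Lep, with higher means. Acta2, Tagln, Cnn1, Npnt and Itga8 are darkest in KO labelled sedentary 1, and Myl9, Prkar2b and Tpm2 in KO labelled sedentary 3, where Nppa is at 13250 CPM.

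Markers of pericytes, the mural cells of capillaries, went different ways in KO labelled sedentary. Their 10 genes summed to 1259 to 1422 CPM in Flox labelled sedentary and to 739 to 1361 CPM in KO labelled sedentary. Rgs5, the most abundant, stood at 560 to 679 CPM in Flox and at 548, 495 and 341 CPM in KO. Library 3 of KO, which had the highest Myl9, thus had the lowest Rgs5 of all 12. Between these groups 8 of the 10 had a log2 difference below 0. In 3 the groups were apart with KO lower, as in 7.93% of all tested genes. In KO labelled sedentary 1, where Acta2, Tagln and Myh11 peaked, 4 of the 10 markers were at their highest of all 12 libraries: Cspg4 at 47.7 CPM, Pdgfrb at 89.3 CPM, Notch3 at 71.5 CPM and Mcam at 71.7 CPM. The share of all genes that peaked there was not computed. Their log2 differences between the groups were 0.15, -0.01, -0.12 and 0.18 in that order. The 12 fibroblast and myofibroblast markers summed to 1116 to 1186 CPM in Flox labelled sedentary and 1698 to 1958 CPM in KO labelled sedentary. Their sums reached 2473 CPM in Flox labelled exercise 2 and 2545 CPM in KO labelled exercise 3, where Myl9 was at 51.5 and 41.5 CPM. No marker of these lists or of the atrial and adipocyte lists was at 0 in all libraries. Their part in the levels of the contractile genes was not tested.

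The close relatives of Myl9 are Myl12a and Myl12b, regulatory light chains of non-muscle myosin, whose similar sequences can take a share of one another's reads. Myl12b measured 35.1, 36.9 and 32.9 CPM in Flox labelled sedentary and 36.7, 57.1 and 53.5 CPM in KO labelled sedentary. Myl12a stood at 389 to 452 CPM and at 373 to 382 CPM. Their mean log2 differences were 0.49 ± 0.17 for Myl12b and -0.13 ± 0.19 for Myl12a (SE). Myl6, an essential light chain of smooth and non-muscle myosin, stood at 142 to 195 CPM and at 187 to 255 CPM. The ventricular chains Myl2 and Myl3 stood lower in KO than in Flox under the sedentary label, at 4033 against 7190 CPM and at 2553 against 4422 CPM in means. Of the 9 tested light chains other than Myl9, 0 passed for KO over Flox under the exercise label, with 0 at an unadjusted p under 0.05 and 0 by DESeq2.

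Genes that act on the same apparatus gave no calls between genotypes under the exercise label. Of 13 regulators around myocardin and serum response factor, 0 passed for KO over Flox under the exercise label (2 at an unadjusted p under 0.05, against 7.94% of all genes; DESeq2 0), and the lowest p was that of Klf4, a repressor of smooth muscle genes. Klf4 stood at 25.8 CPM in KO against 36.3 CPM in Flox in means (-0.50 ± 0.14, SE; edgeR adjusted p = 0.601). Srf itself stood at 67.9, 54.8 and 84.5 CPM in KO labelled exercise and at 70.0, 59.4 and 59.2 CPM in Flox labelled exercise. Of 41 further smooth muscle genes 0 passed, with 6 at an unadjusted p under 0.05, against the same 7.94% (DESeq2 0). The medians of these 2 lists were -0.04 and -0.05, against -0.01 over all tested genes.

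The genes beside Myl9 on chromosome 2 did not share its difference under the sedentary label. For these neighbours CPM was scaled by total counts alone, without the TMM factors used for the contractile genes. Those factors were 0.954 to 0.971 in Flox and 1.046 to 1.124 in KO labelled sedentary. With them, Flox values would be higher and KO values lower than those given here. Dlgap4, a synaptic scaffold protein gene, stood at 52.6 CPM in Flox and 61.0 CPM in KO labelled sedentary in group means. Tgif2, a homeobox repressor gene, stood at 2.46 and 3.10 CPM. The other 4 of the 6 nearest genes in the table, 2 of them pseudogenes, were at or below 0.228 CPM in the mean of every group.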

How the data were processed

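Estimated counts per gene symbol were deposited by the authors as one table, not scaled between libraries. Salmon, which estimates counts per transcript, and FastQC are named in the submitters' processing notes without versions, as are the builds mm9 and mm10 without a role; the sources used here give no annotation, strand setting or step to genes. RNA was taken with Trizol and depleted with a RiboZero kit before an NEB library kit, per the labels' protocols. Values not whole made up 21.6% to 26.4% of a library, and counts were rounded. Vectors, adaptors and controls (1696 of 55874 entries) were left out.

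The quasi-likelihood test of edgeR (4.0.16, under R 4.3.3) was run on 15226 genes kept by filterByExpr, with TMM scaling, a mean per group over all 12 libraries and Benjamini-Hochberg adjustment at 0.05. A standard error is the log2 fold change over the root of F. DESeq2 1.42.0 was an alternative. Log2 CPM used a prior count of 1. Levels per kilobase used the union of GENCODE M21 exons, and promoters came from RefSeq. The fitting procedure was checked on counts simulated with the same relative spread for every gene. That check does not show how the test behaves at the spread of these libraries. No label says that libraries came from separate animals, so each p-value reflects only how these samples vary, which may be technical. The members, gene lists and tests were chosen with earlier results of these data known. Named genes are the 10 members, the 5 genes most like Myl9 and the 5 most like the mean of the others by Pearson correlation, the 3 neighbours on either side of Myl9, and genes of the light chain and myocardin lists; Actc1 and Cidec were named after their values were seen.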

Additional observations from a re-analysis of the deposited data

Results flagged for a closer look

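Cnn1 moved in opposite directions between the treatment labels of the 2 genotypes, with all 3 exercise libraries above all 3 sedentary ones in Flox and all 3 below in KO. Groups were apart upwards in 7.5% of all tested genes in Flox, and downwards in 7.31% in KO. In Flox the nearest values were 3.10 CPM (59 counts) under the exercise and 3.07 CPM (52 counts) under the sedentary label. The difference between the 2 treatment effects on Cnn1 was -2.52 ± 0.64 on the log2 scale (SE). No gene passed this interaction in edgeR (smallest adjusted p = 0.279). The interaction shares the KO sedentary libraries with the comparison on which the list was chosen.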

How the results depend on the processing

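Genes called over the whole table depended on the tool and on single libraries. Between genotypes under the sedentary label the count was 19, against 370 by DESeq2, 120 with no filter on low counts, 39 from only the 2 groups compared and 37 with the replicate block. Leaving out 1 library at a time gave 2 to 479, the first without Flox labelled sedentary 2 and the second without KO labelled sedentary 1. Without Flox labelled sedentary 1 or 3 it was 11 or 6, without KO labelled sedentary 3 it was 7, and without KO labelled exercise 2 or 3 it was 35 or 43. Under the exercise label the count was 1, against 10 by DESeq2, 4 with no filter and 1 to 2 with a library left out. Between treatment labels it was 0 in Flox, against 44 by DESeq2, 2 with no filter, 2 from the 2 groups and 0 to 2 with a library left out. In KO it was 3, against 110 by DESeq2, 1 with DESeq2's size factors in edgeR, 30 with no filter, 5 from the 2 groups and 0 to 566 with a library left out, the last without KO labelled sedentary 1.

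Of 760 recomputed log2 differences of the 10 genes, only those that were tested were checked for sign, and 27 changed it. KO over Flox under the sedentary label, and Myl9 between treatment labels, were not counted. Under the sedentary label, leaving out a library gave KO over Flox values of -0.016 to 1.13 for Myh11 and -0.37 to 0.18 for Mylk. Among the values that were tested, Cnn1 between treatment labels in KO passed by DESeq2 and not in edgeR, on libraries that entered the choice of the list. Under the exercise label, leaving out a library gave KO over Flox values of -0.35 to 0.0035 for Myl9, -0.0413 to 0.56 for Acta2, -0.25 to 0.26 for Tagln, -0.22 to 0.17 for Myh11, -0.19 to 0.30 for Cnn1, -0.11 to 0.029 for Smtn, -0.0080 to 1.13 for Actg2 and -0.0923 to 0.34 for Lmod1. Exercise over sedentary ran in Flox from -0.11 to 0.34 for Myh11, -0.16 to 0.0055 for Smtn and -0.0832 to 0.20 for Mylk. In KO it ran from -1.08 to 0.0648 for Myh11, -0.0756 to 0.0627 for Smtn and -0.34 to 0.20 for Mylk. The KO minus Flox difference in the ratio of Myl9 to the other genes ran from -0.48 to 0.0469. The cause of these changes was not tested.

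Libraries with the same replicate number did not deviate together more than others (correlations of -0.393 to 0.355, against -0.478 to 0.363), so the numbers were not taken as pairs. With the replicate block, Myh11 and Cnn1 turned to 0.0783 and 0.0443 for KO over Flox under the exercise label.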
